A study of Saccharomyces cerevisiae with 16 samples.

Results

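The Dam1 complex, also called DASH, is the outermost microtubule-binding assembly of the budding yeast kinetochore. The 10 genes DAM1, DAD1, DAD2, DAD3, DAD4, DUO1, ASK1, SPC19, SPC34 and HSK3, which encode its subunits, were read by gene name from a table of 6679 genes. Each name matched 1 gene, and all 10 passed the filter on low values, a mean of at least 5 RPKM (reads scaled to gene length and library depth).

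As background, the complex assembles into rings and partial rings around spindle microtubules and links the Ndc80 complex, the main microtubule receptor of the kinetochore, to the growing and shrinking microtubule end. The Aurora B kinase Ipl1 phosphorylates Dam1, Ask1 and Spc34 to release faulty attachments. In yeast meiosis the outer kinetochore is taken apart during prophase I, while homologues recombine, and is rebuilt before the first division. The subunits act as 1 assembly in which every one is present in equal number, so the supply of each is of interest.

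The cells were SK1 yeast, a background that sporulates quickly and synchronously, collected 3 h or 6 h after transfer to sporulation medium and treated with 100 µM cycloheximide for 1 min. They were WT or lacked the open reading frame of DBP1, a DEAD-box RNA helicase, removed without a marker by a Cas9-based strategy. Ribosome footprints and mRNA fragments were sequenced from each, giving 8 groups of 2 libraries, numbered replicates 3 and 4 in WT and 2 and 4 in the deletion. The labels named no further allele. They did not call the replicates separate cultures, and a p-value therefore reflects library-to-library spread alone, which may be technical.

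DBP1 stood at 147 to 429 RPKM in WT footprint libraries and 32.3 to 161 RPKM in WT mRNA libraries, against 0.449 to 1.12 and 0.409 to 1.25 RPKM in the deletion. Depth, worked out from the RPKM steps, was 4578411 to 6965131 reads per footprint library and 5645017 to 9145059 per mRNA library. The 10 subunit genes held 25 to 704 reads each in a footprint library and 87 to 1326 in an mRNA library. The stage was checked on marker genes. Summed over 6 genes of meiotic prophase (SPO11, REC8, HOP1, RED1, DMC1, ZIP1), footprints ranged over 6698 to 7677 RPKM at 3 h and 1352 to 2228 at 6 h. Summed over 6 genes of the middle phase (NDT80, SPS1, SPS2, GIP1, SSP1, SPR3), they ranged over 129 to 216 RPKM and 26678 to 28873. Summed footprints of 6 genes of dividing cells (CLN1, CLN2, CLN3, CLB2, SWI5, CDC20) were 28.6 to 35.9 RPKM at 3 h and 618 to 784 at 6 h. Of these CDC20, which is also used in meiosis, alone held 597 to 757 at 6 h. SWI5 (2.50 to 5.28 RPKM, then 17.0 to 20.8) was higher at 6 h too. CLN1 and CLN3 were lower, and CLN2 and CLB2 overlapped between the times. Summed footprints of 6 genes of haploid cells (GPA1, STE4, STE18, FUS3, RME1, STE5) were 73.7 to 88.1 RPKM at 3 h and 1656 to 1956 at 6 h. Of these STE18 alone held 1545 to 1813 at 6 h. STE4 (11.4 to 15.8 RPKM, then 71.0 to 99.3) and STE5 (0.973 to 1.92 RPKM, then 7.89 to 9.16) were higher at 6 h too. GPA1 and RME1 were lower, and FUS3 overlapped between the times. No listed gene was at 0 in a library, and the part of these cell types in the changes between times was not tested.

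The mRNA library labelled deletion 3 h replicate 2 went against its label. Over 5712 genes its log2 values correlated at 0.991 with the library labelled deletion 6 h replicate 2, at 0.977 to 0.980 with the other 6 h libraries and at 0.636 to 0.707 with the 3 h libraries (genes are not independent replicates). It is shown apart and left out of the fits of mRNA and of footprints per mRNA. The deletion at 3 h then has 1 mRNA library, replicate 4, assumed to vary like the others.

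Between 3 h and 6 h in WT the subunit genes did not move as 1 block. On the deposited RPKM scale, footprints rose for DAD3 and HSK3, fell for DAM1, DAD4, DAD1, SPC34 and ASK1, and did not pass the test for DUO1, SPC19 and DAD2. Among all 5312 genes tested, 20.1% rose and 63.3% fell, so the share of subunit genes in each direction was near that of the genome. The median log2 change was -0.45 over the subunit genes and -0.96 over all genes. In bulk cultures, fewer cells at a stage and less RNA per cell cannot be told apart. Since the genome-wide median itself lay at -0.96 in footprints and at -1.38 in mRNA, a second reading, in which libraries were rescaled by their median ratio, is given below for the genes it alters.

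**Figure D1:**
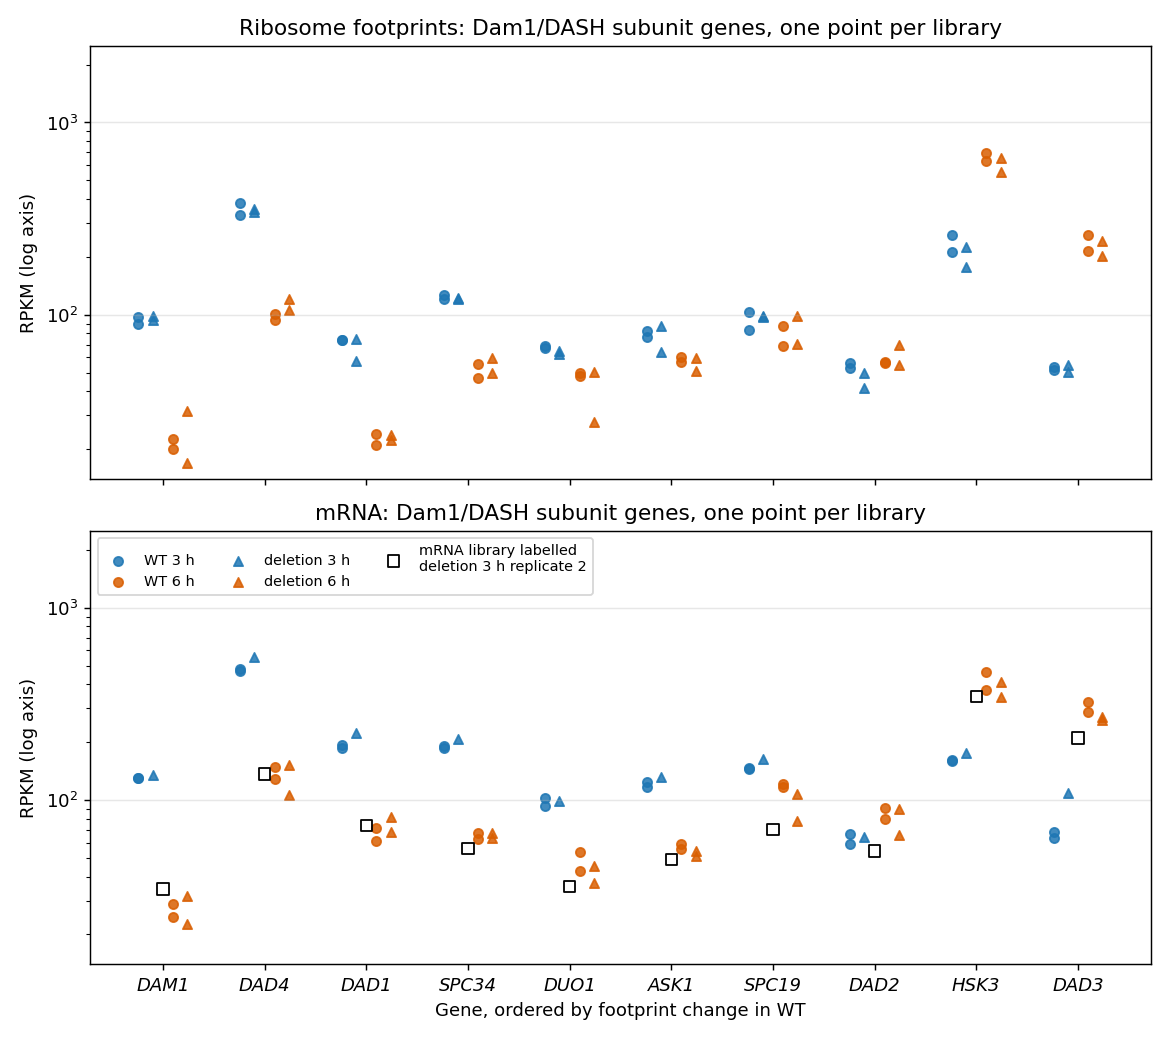
RPKM of the 10 subunit genes (log axis) in each footprint library (top) and mRNA library (bottom), ordered by footprint change in WT, with circles for WT, triangles for the deletion, blue for 3 h, orange for 6 h and open squares for the mRNA library that went against its label. On the deposited scale the orange points of DAD3 and HSK3 lie above all blue points. Those of DAM1, DAD4, DAD1, SPC34, DUO1 and ASK1 lie below them. Those of DAD2 overlap, and those of SPC19 overlap in footprints and lie below in mRNA. The falls of SPC34, and in mRNA of DAD1 and in WT of DAD4, did not pass once libraries were rescaled. The changes of DUO1, ASK1 and SPC19 then turned sign.

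DAM1 encodes the founding subunit, which binds both the microtubule and the Ndc80 complex. Its footprints in WT were 97.7 and 89.8 RPKM at 3 h and 20.0 and 22.7 RPKM at 6 h. In the deletion they were 93.6 and 98.6 RPKM, then 31.5 and 17.0 RPKM. All libraries at 6 h lay below all libraries at 3 h. In WT the log2 change was -2.08 (SE 0.25, limma adjusted p = 1.0e-04), the steepest fall of the 10 and 1.13 below the median change of all genes. DUO1, whose product binds Dam1 directly, held 69.0 and 67.5 RPKM of footprints in WT at 3 h and 48.3 and 49.7 RPKM at 6 h. Deletion libraries held 64.4 and 62.3 RPKM, then 27.8 and 50.6 RPKM, so every 6 h library was again below every 3 h library. The change in WT, -0.47 (SE 0.24, limma adjusted p = 0.10), did not pass and had the opposite sign, 0.49, on the rescaled values. It passed without deletion replicate 2 or replicate 4 (limma adjusted p = 0.0033 and 0.0037), in a fit that shares the spread over groups.

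The 4 small Dad subunits, named for their interaction with Duo1 and Dam1, went separate ways. DAD4 had the highest footprint level of the 10 genes at 3 h, with 382 and 331 RPKM in WT and 341 and 355 RPKM in the deletion. At 6 h it held 101 and 93.9 RPKM in WT and 105 and 120 RPKM in the deletion. DAD1 held 73.8 and 74.1 RPKM in WT at 3 h against 21.0 and 24.1 RPKM at 6 h, and 74.7 and 57.2 RPKM in the deletion against 23.8 and 22.4 RPKM. Neither gene had overlapping times. In WT DAD4 fell by 1.86 (SE 0.13, limma adjusted p = 8.7e-06) and DAD1 fell by 1.68 (SE 0.16, limma adjusted p = 3.6e-05) on the log2 scale.

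DAD3 went up where DAD1, an open reading frame of the same length, went down. Its WT footprints were 51.4 and 53.3 RPKM at 3 h and 260.2 and 216 RPKM at 6 h. Those of the deletion were 54.9 and 50.5 RPKM, then 202 and 240.5 RPKM. The times were far apart in both strains, and in WT the log2 change was 2.16 (SE 0.15, limma adjusted p = 6.9e-06), 3.12 above the median of all genes. DAD2 stayed within a narrow band, at 56.2 and 52.6 RPKM in WT at 3 h, 56.9 and 56.3 RPKM at 6 h, and 41.5 to 69.4 RPKM over the deletion libraries. Its change in WT was 0.06 (SE 0.16, limma adjusted p = 0.74) as deposited and 1.01 (limma adjusted p = 0.0015) on the rescaled values.

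HSK3 encodes the smallest subunit, a helper of Ask1, and held the most footprints of the 10 at 6 h. Its WT libraries stood at 259 and 212 RPKM at 3 h and 630 and 693 RPKM at 6 h. Deletion libraries stood at 224 and 177 RPKM, then 549 and 656 RPKM. No library at 3 h reached any at 6 h, and the rise in WT was 1.49 (SE 0.17, limma adjusted p = 8.7e-05) on the log2 scale. ASK1, which encodes the spindle-associated partner of Hsk3 and a substrate of the cyclin-dependent kinase, moved little. It held 81.9 and 76.3 RPKM in WT at 3 h and 60.4 and 56.8 RPKM at 6 h, with 64.2 and 87.4 RPKM and then 51.3 and 59.4 RPKM in the deletion. The fall of 0.43 (SE 0.17, limma adjusted p = 0.046) was near the threshold. It did not pass without a filter on low values (0.073), without the trend (0.056) or without WT replicate 3 or 4 (0.28 and 0.26), and it had the opposite sign on the rescaled values, 0.53 (limma adjusted p = 0.031).

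SPC34 and SPC19 were first found as spindle pole body components. SPC34 footprints were 127 and 121 RPKM in WT at 3 h and 47.0 and 55.7 RPKM at 6 h, and in the deletion 122 and 121 RPKM, then 59.5 and 49.6 RPKM. They fell by 1.26 (SE 0.15, limma adjusted p = 8.4e-05) in WT as deposited, and on the rescaled values the change was -0.30 (limma adjusted p = 0.081). SPC19 overlapped between times, with 83.3 and 104 RPKM and then 68.6 and 87.0 RPKM in WT, and 98.0 and 97.3 RPKM and then 70.6 and 98.7 RPKM in the deletion. Its change in WT was -0.26 (SE 0.20, limma adjusted p = 0.25) as deposited, and on the rescaled values it was called higher, at 0.70 (limma adjusted p = 0.026). With libraries rescaled, 5 subunit genes were called higher (DAD3, HSK3, DAD2, SPC19, ASK1) and 3 lower (DAM1, DAD4, DAD1), where 36.0% of all genes were called higher and 32.3% lower. DAD3 and HSK3 were thus higher, and DAM1, DAD4 and DAD1 lower, on both scales.

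**Figure D2:**
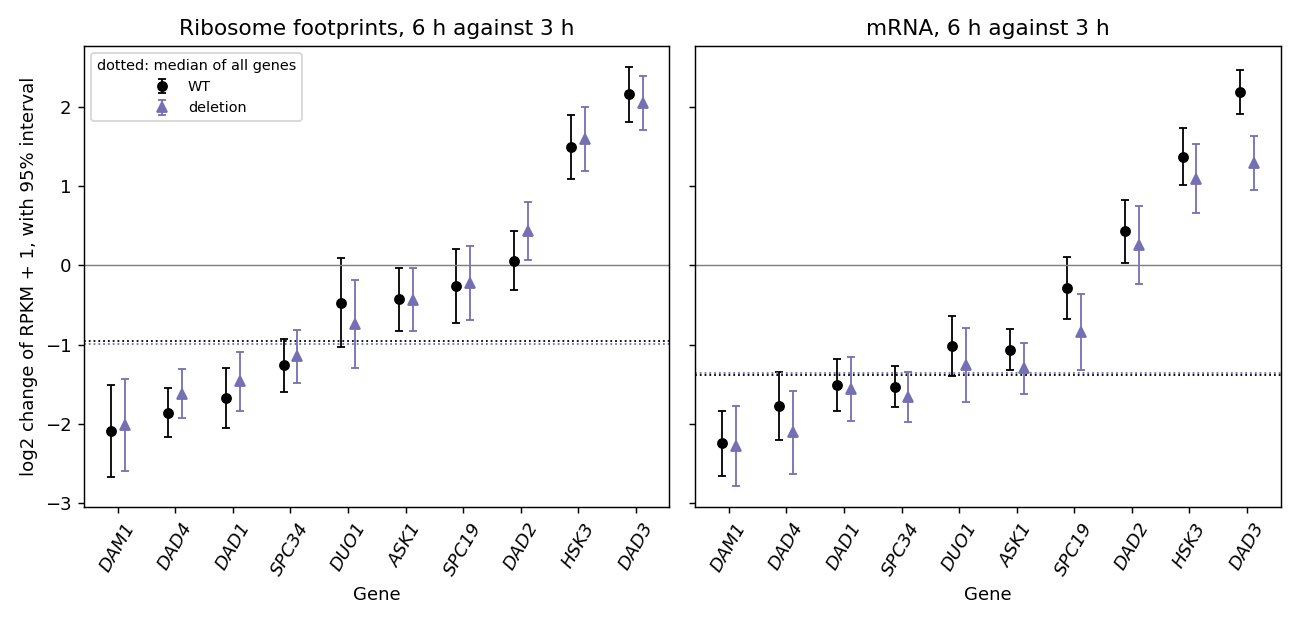
Log2 change of RPKM + 1 from 3 h to 6 h for each subunit gene (points, with 95% intervals from the fit) in footprints (left) and mRNA (right), black for WT and purple for the deletion, with dotted lines at the median of all genes. DAD3 and HSK3 lie above 0 in both strains and both kinds of library, whereas DUO1, ASK1 and SPC19 lie below 0 but above the dotted lines, so their sign turns when libraries are rescaled.

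The deletion strain showed the same order of changes. Of the 10 genes, 3 rose and 6 fell in footprints as deposited, where 19.3% of all genes rose and 65.1% fell. On the rescaled values 5 were called higher and 3 lower, where 34.8% and 31.3% of all genes were called. DAD3 rose by 2.04 and HSK3 by 1.59, and DAM1 fell by 2.01, DAD4 by 1.62, DAD1 by 1.46 and SPC34 by 1.15 on the log2 scale. On the rescaled values SPC34 did not pass (-0.16). ASK1 fell by 0.43 as deposited and was called higher, at 0.55, on the rescaled values. The calls of DAD2 (0.43, limma adjusted p = 0.033) and DUO1 (-0.74, limma adjusted p = 0.020) rested on single libraries. Without deletion replicate 4 the change of DAD2 was 0.14, and without deletion replicate 2 that of DUO1 was -0.30, and neither passed. DAD2 also failed in the fit with a replicate block (limma adjusted p = 0.058), by limma-voom (0.11) and without either WT replicate (0.11 each). DUO1 failed without a filter (0.063) and without either WT replicate (0.054 and 0.053), and had the opposite sign, 0.23, on the rescaled values.

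The mRNA levels showed whether the footprints followed the transcripts. In WT, 3 subunit genes rose and 6 fell in mRNA, where 16.4% of 5720 genes rose and 72.9% fell. The median log2 change of the subunit genes was -1.04, against -1.38 over all genes. DAD3 mRNA was 63.3 and 68.5 RPKM at 3 h and 322 and 286 RPKM at 6 h, a change of 2.19 (SE 0.12, limma adjusted p = 6.6e-06). HSK3 mRNA was 161 and 159 RPKM, then 462 and 374 RPKM, a change of 1.37 (SE 0.15). Both genes thus gained transcripts as well as footprints, with no overlap between the times.

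At the other end DAM1 mRNA was 130.3 and 129.6 RPKM at 3 h and 24.6 and 28.9 RPKM at 6 h, and fell by 2.24 (SE 0.17) on the log2 scale. DAD4 mRNA was 467 and 480.2 RPKM, then 148 and 128 RPKM, and fell by 1.77 (SE 0.18). DAD1 mRNA was 187 and 193 RPKM, then 61.1 and 71.4 RPKM, and fell by 1.51 (SE 0.14). SPC34 mRNA was 192 and 187 RPKM, then 62.6 and 67.3 RPKM, and fell by 1.53 (SE 0.11). These 4 genes had the steepest falls of mRNA as well as of footprints. On the rescaled values only DAM1 of the 4 was still called lower (-0.87), with DAD4 at -0.38, SPC34 at -0.15 and DAD1 at -0.12.

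ASK1 mRNA was 124 and 117 RPKM, then 59.1 and 55.7 RPKM. DUO1 mRNA was 93.7 and 102 RPKM, then 42.6 and 53.8 RPKM. ASK1 fell by 1.06 (SE 0.11) and DUO1 by 1.02 (SE 0.16) as deposited, with the opposite sign, 0.32 and 0.36, on the rescaled values. SPC19 mRNA was 144 and 147 RPKM, then 122 and 117 RPKM. Its change, -0.29 (limma adjusted p = 0.13), passed with a replicate block (0.024) and without either deletion replicate (0.016 each), and was 1.10 on the rescaled values. DAD2 mRNA was 59.2 and 66.3 RPKM, then 79.3 and 90.7 RPKM. Its rise of 0.43 (SE 0.17, limma adjusted p = 0.042) did not pass without a filter (0.092), without the trend (0.056), with all libraries (0.22) or without WT replicate 3 or 4 (0.24 and 0.27). With libraries rescaled, 4 subunit genes were called higher in WT mRNA (DAD3, HSK3, DAD2, SPC19) and 1 lower, where 38.1% of all genes were called higher and 35.5% lower.

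In the deletion, mRNA at 6 h was set against the lone 3 h library, and 2 subunit genes rose and 7 fell, where 14.8% of all genes rose and 71.9% fell. On the rescaled values 3 were called higher and 2 lower, where 34.6% and 30.4% of all genes were called. DAD3 mRNA was 109 RPKM at 3 h and 262 and 269 RPKM at 6 h, and rose by 1.28 on the log2 scale. HSK3 mRNA was 176 RPKM, then 343 and 413 RPKM, and rose by 1.09. DAM1 mRNA was 134 RPKM, then 31.8 and 22.8 RPKM, and fell by 2.28. With the library that went against its label kept as a 3 h library, none of the 10 genes was called here, and 0 of all 5712 genes tested were.

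Across the 10 genes the changes in footprints and in mRNA in WT correlated at a Pearson r of 0.977, and across all 5291 genes tested in both kinds at 0.942. This is a description across genes, which share libraries and depth and are not independent replicates.

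Footprints per mRNA, the ratio of the RPKM values of a footprint library and the mRNA library of the same sample number, was used as translation efficiency. This pairing was taken from the labels. Replicate deviations of footprints and mRNA of a sample correlated at -0.34 (WT 3 h), -0.17 (WT 6 h) and 0.67 (deletion 6 h). The SDs of the ratios depend on it, and the limma fits do not except where a replicate block is named. DAD1 had the lowest ratio and HSK3 the highest of the 10 in 7 of 7 samples with both kinds of library in place. The DAD1 ratio was 0.390 ± 0.0075 (SD, n = 2) in WT at 3 h and 0.340 ± 0.0049 (SD, n = 2) at 6 h, 0.258 in the 1 deletion sample at 3 h and 0.309 ± 0.0249 (SD, n = 2) in the deletion at 6 h. DAD1 at 6 h rested on 25 to 31 footprint reads a library, so an SD over 2 samples can understate its error. HSK3 stood at 1.47 ± 0.198 (SD, n = 2) and 1.61 ± 0.347 (SD, n = 2) in WT, and at 1.00 and 1.59 ± 0.0083 (SD, n = 2) in the deletion. Among all genes tested in both kinds, DAD1 lay between percentiles 4.06 and 12.6 of the ratio and HSK3 between 68.9 and 93.2. The 8 genes in between were closer together, with WT means of 0.640 (SPC19) to 0.871 (DAD2) at 3 h and 0.654 (SPC19) to 1.03 (DUO1) at 6 h, and at 3 h each differed from its neighbour in that order by less than the larger SD of the pair. At 6 h the same held except between DAD4 and DAD3 and between DAM1 and ASK1. DAD1 and HSK3 are both among the 4 shortest open reading frames of the complex.

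**Figure D3:**
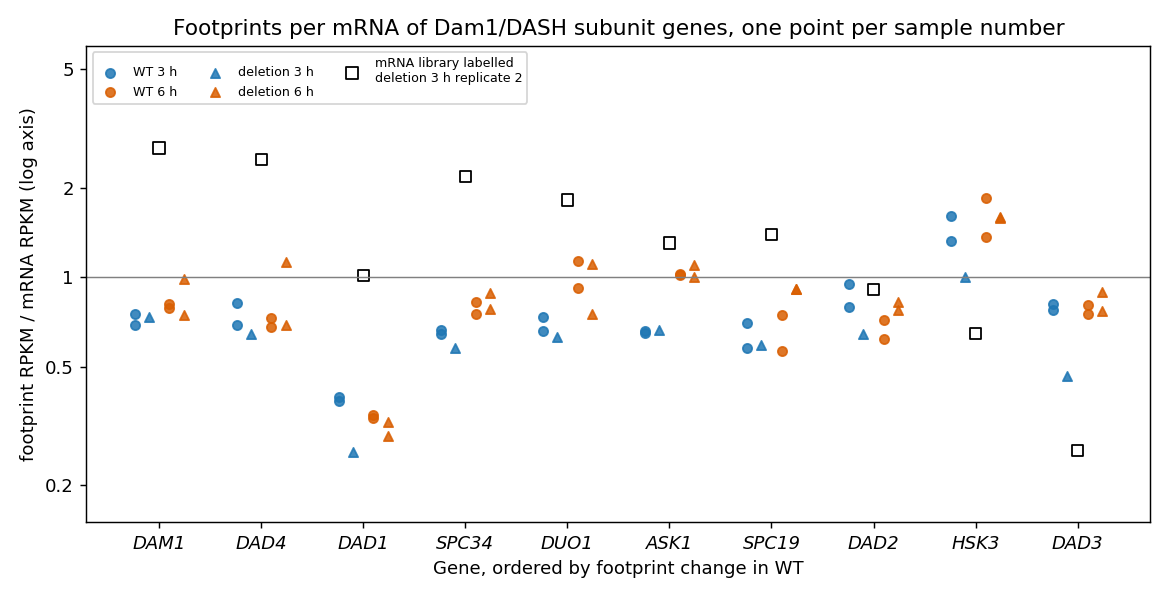
Footprint RPKM divided by mRNA RPKM (log axis) of each subunit gene in each sample, with circles for WT, triangles for the deletion, blue for 3 h, orange for 6 h and open squares for the sample whose mRNA library went against its label. DAD1 is lowest and HSK3 highest in each of the 7 samples drawn with filled symbols, and ASK1 is higher at 6 h than at 3 h there as deposited.

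Between the times the ratio passed the test for few of these genes. In WT, 1 of the 10 genes, ASK1, passed with a rise and 0 with a fall, where 30.2% of 5291 genes rose and 2.48% fell. The median change was 0.07 over the subunit genes and 0.50 over all genes, and 2 of the 10 lay above the gene median. The ASK1 ratio was 0.659 and 0.650 at 3 h and 1.02 and 1.02 at 6 h, a log2 change of 0.64 (SE 0.21, limma adjusted p = 0.038). It did not pass without WT replicate 3 or 4 (0.46 each), with all libraries (0.67) or on the rescaled values (0.71), where the change was 0.20. The lowest change was that of DAD2 (-0.37, SE 0.24). HSK3 changed by 0.12 (SE 0.24) as deposited, and by -0.31 on the rescaled values, and DAD1 by -0.17 (SE 0.21).

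In the deletion 2 genes passed with a rise, ASK1 (0.87, limma adjusted p = 0.027) and DAD3 (0.76, limma adjusted p = 0.029), and 0 with a fall, where 17.2% of all genes rose and 1.8% fell. Here the median of the subunit genes, 0.50, was near that of all genes, 0.47. Both calls were lost on the rescaled values, with all libraries and without WT replicate 3 or 4 (limma adjusted p = 0.21 to 0.23). The ASK1 call was also lost in the fit with a replicate block (0.053) and that of DAD3 by limma-voom (0.066). On the rescaled values no subunit gene passed limma after adjustment in either strain, where 5.39% (WT) and 4.63% (deletion) of all genes passed. Before adjustment 3 subunit genes had a p under 0.05 in WT and 0 in the deletion. That threshold is looser, and the share of all genes under it was not taken, so these counts have no background to be read against.

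With all 10 genes, levels of the subunits stood further apart in every library at 6 h than in any at 3 h. RPKM is per length, and levels were set side by side on that scale, though counted lengths ran from 150 nt (HSK3) to 972 nt (DAM1). Whether scaling by length makes such genes comparable was not tested. The SD over the 10 genes of log2 footprint RPKM averaged 0.91 over the 3 h libraries and 1.48 over the 6 h libraries, and that of mRNA 0.84 and 1.20. Leaving out the 4 shortest open reading frames (HSK3, DAD4, DAD1, DAD3) brought these to 0.471, 0.666, 0.561 and 0.698. The libraries of the times then overlapped, at 0.406 to 0.559 and 0.535 to 0.858 in footprints and at 0.510 to 0.590 and 0.516 to 0.795 in mRNA. Footprints of the highest gene were 6.30 to 8.55 times those of the lowest in the 4 libraries at 3 h and 23.1 to 38.6 times in the 4 at 6 h. In those at 3 h the highest was DAD4, and in those at 6 h it was HSK3. The spread of levels over all genes was not taken, so the widening is not shown to be particular to these genes. The SD of the WT log2 changes between times was 1.40 over the 10 genes and 1.77 over all genes in footprints. In mRNA it was 1.45 and 1.63.

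On the deposited scale the sum over the 10 genes overlapped between the times in footprints, at 1147 to 1282 RPKM at 3 h and 1175 to 1384 RPKM at 6 h. In mRNA it was 1622 to 1860 RPKM, then 1170 to 1384 RPKM. On that scale the genome-wide median change was below 0 in both kinds, as given above. Within the footprint sum, HSK3 took 15.4% to 20.2% at 3 h and 46.7% to 51.1% at 6 h. DAD4 went from 28.0% to 30.9% down to 6.94% to 8.96%. The HSK3 footprint level was 1.79 to 2.65 times that of DAM1 at 3 h and 17.5 to 38.6 times at 6 h, and in mRNA 1.23 to 1.31 and 10.8 to 18.8 times. The DAD3 level relative to DAD1 went from 0.697 to 0.882 in footprints at 3 h to 8.48 to 12.4 at 6 h. A ratio of 2 genes within a library does not depend on how the library was scaled.

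Lengths and read numbers bear on how firm these levels are. By RefSeq lengths (assembly R64) the coding sequences run from 210 nt (HSK3), 219 nt (DAD4) and 285 nt (DAD1 and DAD3) through DAD2 (402 nt), SPC19 (498 nt), DUO1 (744 nt), ASK1 (879 nt) and SPC34 (888 nt) to DAM1 (1032 nt). The step of the RPKM values showed that the authors divided by the coding length less 60 nt, for all 10 genes. DAD1 at 6 h rested on 25 to 31 footprint reads a library, the fewest of the 10, and HSK3 on 477 to 500. No subunit gene overlaps another annotated gene in that assembly.

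Without DBP1 no subunit gene passed the test, in footprints, mRNA or their ratio, at either time. In footprints at 3 h, limma called 0 of the 10 (0 with p under 0.05 before adjustment, here called unadjusted, and 0 by limma-voom), where 0.0377% of all genes were called. Each share of all genes called, here and below, is after adjustment and is no background for an unadjusted count. Unadjusted, 1.81% of all genes were under 0.05 in footprints at 3 h. In footprints at 6 h the unadjusted share by limma was 2.62%, and for the difference of the time change 1.47%. In mRNA it was 4.70% at 3 h, 2.22% at 6 h and 4.20% for the difference of the time change. For the ratio it was 1.27%, 1.19% and 1.02% in the same order. These shares are the background for the unadjusted limma counts below. The log2 difference of deletion and WT ran from -0.26 (DAD2) to 0.07 (SPC19), and the 95% intervals lay within -0.66 to 0.62. At 6 h limma again called 0 of the 10 (0 unadjusted, 0 by limma-voom), where 0.0565% of all genes were called, with differences from -0.38 (DUO1) to 0.21 (DAD4) and intervals within -0.93 to 0.69. The difference of the time change between the strains was called by limma for 0 of the 10 (0 unadjusted, 0 by limma-voom) and for 0% of all genes, and ran from -0.27 (DUO1) to 0.37 (DAD2). A change smaller than these intervals could not be seen at this number of libraries. Leaving out deletion replicate 2 brought DUO1 at 6 h to 0.04 and its difference between strains to 0.17.

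**Figure D4:**
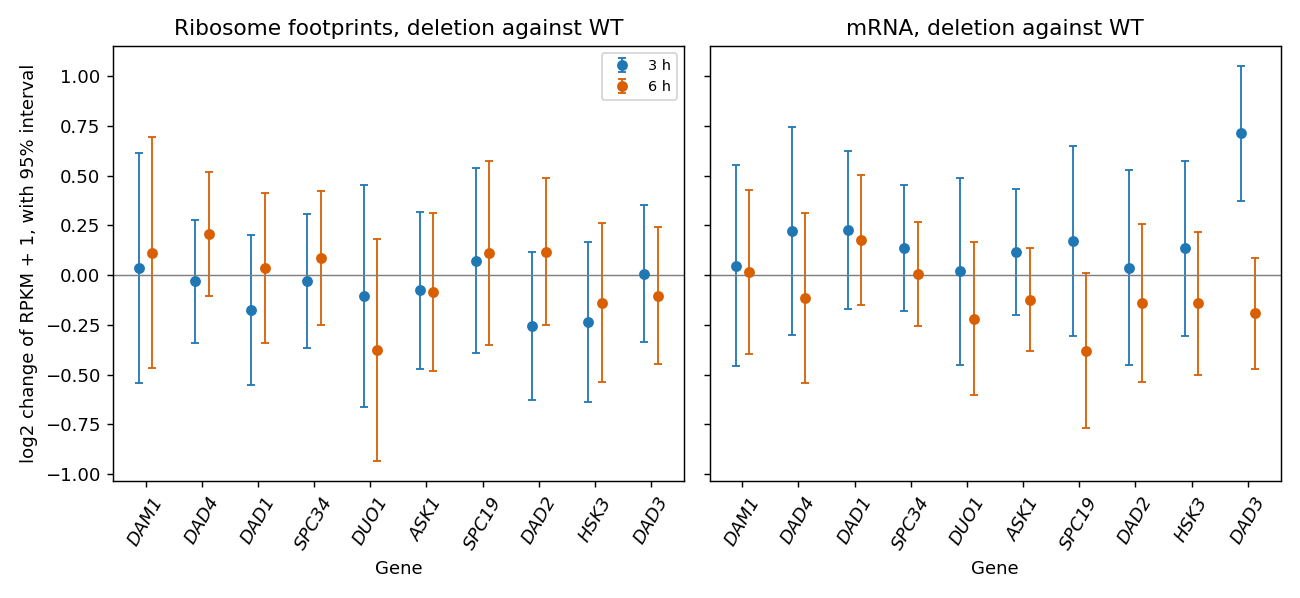
Log2 difference of deletion and WT for each subunit gene (points, with 95% intervals from the fit) in footprints (left) and mRNA (right), blue for 3 h and orange for 6 h; the deletion mRNA at 3 h is 1 library. Footprint points lie between -0.38 and 0.21, and the DAD3 mRNA at 3 h, at 0.71, is the 1 point that stands off, without passing the adjusted test.

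In mRNA at 3 h limma called 0 of the 10 genes (1 unadjusted, 0 by limma-voom), where 0.0175% of all genes were called. The exception at the unadjusted p was DAD3, at 63.3 and 68.5 RPKM in WT and 109 RPKM in the deletion library, a difference of 0.71 (SE 0.14, unadjusted p = 0.0017, limma adjusted p = 0.83). The deletion library was above both WT libraries, yet the footprints of DAD3 at 3 h, at 54.9 and 50.5 RPKM in the deletion and 51.4 and 53.3 RPKM in WT, overlapped. In the same deletion mRNA library 6 of 6 middle-phase markers were above both WT libraries, by a median of 1.27 (0.57 to 1.65) on the log2 scale, and their part in the DAD3 value was not tested. Their summed mRNA was 684 and 306 RPKM in the WT libraries at 3 h, a wide pair, and 1172 RPKM in the deletion library. The share of all genes above both WT libraries was not taken. The other 9 subunit genes differed by 0.02 (DUO1) to 0.23 (DAD1) in mRNA at 3 h, and DUO1 changed sign without WT replicate 3.

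At 6 h limma called 0 of the 10 genes in mRNA (0 unadjusted; 0 by limma-voom, 1 unadjusted), where 0.035% of all genes were called. Differences ran from -0.38 (SPC19) to 0.18 (DAD1). SPC19 mRNA was 122 and 117 RPKM in WT and 77.4 and 108 RPKM in the deletion, so the groups did not overlap but the deletion pair was wide. The difference of the time change between the strains was called for 0 of the 10 (1 unadjusted, 0 by limma-voom) and for 0% of all genes, from -0.90 (DAD3, SE 0.19, limma adjusted p = 1.00) to -0.03 (DAM1).

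For the ratio of footprints to mRNA, limma called 0 of the 10 genes at 3 h (1 unadjusted, 0 by limma-voom), where 0.0189% of all genes were called. The lowest was DAD3 (-0.70, SE 0.21, limma adjusted p = 1.00), which shares the lone mRNA library named above. At 6 h limma called 0 of the 10 (0 unadjusted, 0 by limma-voom), where 0.0189% of all genes were called, with differences from -0.16 (DUO1) to 0.49 (SPC19) and DAD3 at 0.09. The difference of the time change was called for 0 of the 10 (1 unadjusted, DAD3 at 0.79, 0 by limma-voom) and for 0% of all genes.

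The kinetochore partners of the complex were read from a list of 20 genes. In WT footprints as deposited, 6 rose, 9 fell and 5 did not pass, with a median of -0.04, where 20.1% of all genes rose and 63.3% fell. On the rescaled values 11 were called higher and 6 lower, where 36.0% and 32.3% of all genes were. In mRNA 3 rose and 12 fell as deposited (16.4% and 72.9% of all genes), against 12 called higher and 6 lower on the rescaled values (38.1% and 35.5%). In the ratio 12 rose and 0 fell as deposited (30.2% and 2.48%), against 1 and 0 on the rescaled values (2.14% and 3.25%). In deletion against WT, limma called none of the 20 in footprints, mRNA or the ratio, at either time, where 0.0175% to 0.0565% of all genes were called.

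Of the 4 genes of the Ndc80 complex, 2 rose, 1 fell and 1 did not pass in footprints as deposited. NDC80, its largest subunit, held 6.07 and 5.86 RPKM of footprints in WT at 3 h and 87.5 and 90.4 RPKM at 6 h, a change of 3.69 (limma adjusted p = 3.3e-07). Its mRNA was 259 and 272 RPKM at 3 h and 207 and 220 RPKM at 6 h, so that its ratio rose by 4.01 (limma adjusted p = 1.1e-06), which also passed on the rescaled values (3.49). As background, NDC80 is known for a long leader transcript in meiotic prophase that is poorly translated. SPC25 rose by 1.94 in footprints and SPC24 fell by 1.40, on both scales in those directions, and NUF2 did not pass as deposited.

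STU2, a microtubule polymerase of the plus end, had the steepest rise of the 20, from 52.9 and 50.4 RPKM to 740.0 and 708 RPKM of footprints in WT, a log2 change of 3.78. MPS1, the checkpoint kinase, rose by 3.54. The 4 genes of the chromosomal passenger complex, which carries Ipl1, fell by 1.11 to 1.77 as deposited, and 3 of the 4 were called lower on the rescaled values. NBL1 of that complex went from 93.0 and 78.0 RPKM to 23.3 and 25.4 RPKM. SLK19, a kinetochore and spindle midzone protein, went from 193 and 167 RPKM to 48.2 and 45.3 RPKM and fell by 1.92. Of the 6 genes of the KNL1 and MIND complexes, 1 rose (DSN1, 0.72), 1 fell (NNF1, -2.31) and 4 did not pass as deposited. On the rescaled values 5 of them were called higher and 1 lower.

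The mean profile of the 10 genes over 15 libraries, centred within each kind, was most like those of YPT7 (Pearson r = 0.987), NVJ1 (0.987), SCC4 (0.987), USE1 (0.986) and YOR059C (0.985) among 5291 genes. The subunit genes themselves correlated with that mean at 0.80 (SPC19) to 0.96 (SPC34) for 7 of them. DAD2 (-0.59), HSK3 (-0.86) and DAD3 (-0.88) ran against it. Each subunit gene is part of that mean, so its value is not on a par with those of the outside genes. All these values describe libraries that share stage and depth.

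In the mRNA library that went against its label, 9 of the 10 genes were nearer to the 6 h deletion libraries. DAD2 was the exception, nearer to the other 3 h deletion library. The library was set apart for its 6 h profile, so the count is a description and no separate evidence of its stage. DAM1 was at 34.4 RPKM in it, DAD4 at 137, DAD1 at 73.8, SPC34 at 55.9, DUO1 at 35.4, ASK1 at 49.2, SPC19 at 70.4 and DAD2 at 54.4. Set against the footprint library of its sample number, labelled 3 h, it gave the highest ratio of the 8 samples for DAM1, at 2.72, and the lowest for DAD3, at 0.261.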

How the data were processed

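The deposited table gives RPKM (reads divided by gene length and library depth, by the authors) for 6679 genes, in 1 column per library. The submitters' processing notes list Bowtie2, CASAVA and bcl2fastq 2.17 without saying what each did. Per the labels' protocols, the size cut was 28 to 31 nt for footprints and 50 nt for mRNA. Which program counted reads, whether by strand, and on which build and annotation is not given in the sources used here. Gene lengths and neighbours came from RefSeq, assembly R64, which matched 5994 of 6679 IDs.

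Whole reads were recovered from the RPKM steps, within 0.02 of a whole read. Reads carried no molecular identifiers, so PCR copies are not separate molecules. Replicate libraries differed by more than sampling noise (mean chi-square of at least 3.81), so none was counted as deposited more than once.

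With limma 3.58.1 (R 4.3.3), log2(RPKM + 1) was fitted for genes averaging at least 5 RPKM (eBayes with a trend, two-sided, Benjamini-Hochberg over all genes, threshold 0.05), with 8 footprint and 7 mRNA libraries. On this scale fold changes of low genes are understated. Translation efficiency was the footprint change minus the mRNA change in 1 model. Every adjusted p is from limma with Benjamini-Hochberg adjustment. The steps were tested on simulated data. Other settings tried were no filter, a pseudocount of 5 RPKM, rescaling by the median ratio, no trend, all libraries, limma-voom on recovered reads, a replicate block and leaving out each replicate. Crossed sample numbers in WT were added after seeing the data. Figures used matplotlib 3.10.9 in Python 3.11.15.

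The members, gene lists and tests were chosen with earlier results of these data known. Partners were named by a rule, the genes of smallest p in each direction in WT footprints, up to 2 each, with the others named where a count is small, after their values were seen. The 5 genes most like the mean profile were named by Pearson r.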

Additional observations from a re-analysis of the deposited data

Results flagged for a closer look

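In the mRNA library labelled deletion 3 h replicate 2, which is in no comparison, DAD3 stood at 209.88 RPKM and HSK3 at 346.227 RPKM, above both WT libraries at 3 h. The WT libraries at 3 h held 63.3 and 68.5 RPKM of DAD3 and 161 and 159 RPKM of HSK3. The deletion libraries at 6 h held 262 and 269 RPKM of DAD3 and 343 and 413 RPKM of HSK3.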

How the results depend on the processing

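Rescaling by the median ratio reversed footprint changes in WT of DUO1 (0.49), ASK1 (0.53) and SPC19 (0.70) and in the deletion of DUO1 (0.23), ASK1 (0.55) and SPC19 (0.76). In mRNA it left 5 genes called in each strain and reversed DUO1 (0.36), ASK1 (0.32) and SPC19 (1.10) in WT and the same genes (0.11, 0.066 and 0.53) in the deletion. It left 0 called for translation efficiency in each strain, with HSK3 in WT at -0.31. With all libraries, 0 genes were called in deletion mRNA between times and 0 for translation efficiency in each strain, DUO1 mRNA at 3 h differed by -0.71 between strains, and the DAM1 difference of time changes was 0.93. Limma-voom called 1 gene for translation efficiency in the deletion. The cause was not tested.

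Leaving out each replicate gave 0 to 2 genes called for translation efficiency in WT and 0 to 4 in the deletion, while the share of all genes called ran from 0.340% to 54.8% and from 2.91% to 32.6%. It gave deletion differences of -0.084 to 0.23 (SPC19 footprints, 3 h), -0.80 to 0.045 (DUO1 footprints, 6 h), -0.044 to 0.082 (DUO1 mRNA, 3 h) and -0.016 to 0.19 (DAD3 translation efficiency, 6 h). It gave differences of time changes of -0.72 to 0.17 (DUO1 footprints) and -0.27 to 0.080 (DAM1 mRNA), and -0.24 to 0.48 for the HSK3 translation efficiency change in WT. Without deletion replicate 4, mRNA contrasts with the deletion at 3 h could not be fitted. Without the 4 shortest open reading frames the SDs were 0.471 and 0.666 (footprints, 3 h and 6 h) and 0.561 and 0.698 (mRNA).

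Deviations of same-numbered libraries between times correlated at -0.04 in WT footprints, 0.24 in deletion footprints and 0.03 in WT mRNA. Those of footprints and mRNA of a sample correlated at -0.34 (WT 3 h), -0.17 (WT 6 h) and 0.67 (deletion 6 h). Not every pair was above 0.1, so the numbers were not taken as pairs in the main fits. The ratios per sample and their SDs do rest on the sample numbers. The replicate block called 1 gene for translation efficiency in the deletion, and crossing the WT numbers gave 2 in WT and 4 in the deletion. The strains share number 4 alone, so no pairing of deletion with WT was possible. Depth limits DAD1 most, at 25 footprint reads.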
